A study of Rattus norvegicus with 48 samples.

Results

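The miR-125, miR-99 and miR-100 families were followed through 48 small RNA libraries from rat amygdala and ventral striatum. The members were the mature names miR-125a-5p, miR-125b-5p, miR-99a-5p, miR-99b-5p and miR-100-5p, which are 5 of 1063 names (612 of them mature) in the deposited table. They were taken by name, and values on lines that shared a name were added together, which touched only miR-125b-5p. All animals were Long Evans rats of 42 days. Their dams had been injected during pregnancy with ethanol (E) or with saline (C). From weaning the offspring lived with littermates (non-enriched, N) or with unfamiliar rats of the same age and sex from untreated dams (socially enriched, S). Each region [A, amygdala; V, ventral striatum] had 6 libraries for each of the 4 treatment groups CN, CS, EN and ES, 3 from females and 3 from males. Each library came from RNA pooled over several rats of one sex and group, so spread between individual rats is partly averaged out. Per the methods both regions were dissected from the same rats, so the libraries of the regions share animals. Which amygdala pool matches which ventral striatum pool is not given in the sources used here.

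A miRNA guides a silencing complex to mRNAs through its seed, bases 2 to 8 of the mature strand. In mammals the miR-99/100 and miR-125 families lie in clusters with a let-7 gene between them, and the members of a cluster can be made from one long transcript. miR-125b and its relatives are abundant in neurons and glia, and miR-100 and miR-99 are known to target the growth kinase mTOR. In the RefSeq gene order of the rat (GRCr8) the clusters were Mir99b, Mirlet7e and Mir125a; Mir100, Mirlet7a-2 and Mir125b1; and Mir99a, Mirlet7c1 and Mir125b2. Each of the 3 clusters lay on 1 chromosome, with 1 other annotated gene within it. miR-125b-5p is therefore encoded by 2 genes, and its reads cannot be assigned to one locus. RefSeq (GRCr8) held mature sequences for 4 of the 5 members, for the let-7 partners and for miR-351-5p, the 1 other listed rat miRNA with the seed of a member. They are shown 5′ to 3′, with the seed in capitals, because the seed divides the members into a miR-125 and a miR-99/100 group across the clusters.
miR-125a-5p: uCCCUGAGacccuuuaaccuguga
miR-125b-5p: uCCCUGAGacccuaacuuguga
miR-351-5p: uCCCUGAGgagcccuuugagccuga
miR-99b-5p: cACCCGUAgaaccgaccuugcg
miR-100-5p: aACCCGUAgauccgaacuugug
let-7e-5p: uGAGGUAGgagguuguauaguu
let-7a-5p: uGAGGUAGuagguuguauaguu
let-7c-5p: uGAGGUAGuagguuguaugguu
miR-125a-5p and miR-125b-5p were 3 edits apart, and miR-99b-5p and miR-100-5p differed at 4 of 22 positions. All these differences lay outside the seed.

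Mature reads per library, estimated from the smallest step between values, ranged from 363141 to 1370413, with a median of 977844. A member was covered by 1158 to 35835 reads per library, so counting error was small beside the spread between libraries. The libraries did not form one homogeneous collection. The table lists several abundant miRNAs, such as let-7f-5p and miR-9a-5p, on more than one line. Clustering by how their signal was divided between lines put the libraries of each region into 3 sets of 8. The number 3 was fixed in the clustering. Sets 1 and 3 of the amygdala lay apart for let-7f-5p (26.5 to 27.5% on its first line, against 24.7 to 25.7%). For the other names used in the clustering their shares overlapped. Each set held 1 library of each sex and treatment group, so sets and treatments were balanced. The sets of both regions matched through consecutive library numbers in all 24 cases. A set number below joins the amygdala set and the ventral striatum set so matched, which were formed apart. They were not always alike. The first line of let-7f-5p held medians of 26.9, 38.0 and 25.5% in sets 1, 2 and 3 of the amygdala. In the ventral striatum it held 26.8, 37.9 and 32.8%. Set 2 of the amygdala was made of the 8 amygdala libraries with the fewest reads (363141 to 622110, against 669364 to 1287699 in the other 16). The methods state that libraries were sequenced in multiplexed groups of 8, but the labels do not say which libraries shared a group. Sets were formed in each region separately, so no set held libraries of both regions. If the sets are such groups, a difference between regions cannot be told apart from one between groups. Members differed between sets. In the amygdala the 3 sets differed for miR-100-5p, miR-125a-5p and miR-99b-5p (limma F test, adjusted p = 1.75e-06, 4.29e-05 and 0.00588), where 11.5% of names did. In the ventral striatum they differed for miR-100-5p and miR-125a-5p (adjusted p = 0.00464 and 0.002), where 13.1% of names did. Values by set therefore accompany the results.

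All 5 members were abundant, and together they held 5.89% ± 1.08 (SD, n = 24) of all mature signal in the amygdala. In the ventral striatum they held 5.31% ± 0.66 (SD, n = 24). miR-125a-5p led, with 27275 ± 6015 RPM (reads scaled to a mature total of 1000000 per library) in the amygdala and 24402 ± 4390 RPM in the ventral striatum (SD, n = 24 each). miR-99b-5p, from the same cluster, followed with 16327 ± 3084 and 16322 ± 2766 RPM (SD, n = 24 each). The other 3 members were lower. miR-125b-5p stood at 7735 ± 1157 RPM in the amygdala and 6985 ± 827 RPM in the ventral striatum (SD, n = 24 each). miR-100-5p stood at 4431 ± 1104 and 3330 ± 589 RPM, and miR-99a-5p at 3154 ± 639 and 2105 ± 217 RPM (SD, n = 24 each). This order of levels in RPM held within nearly every library. It was kept at each step in all 24 ventral striatum libraries, and in the amygdala it failed only between miR-100-5p and miR-99a-5p, in 2 of 24 libraries (female EN replicate 1 and male ES replicate 1, both of set 1). Mature strands are of nearly one length, but library preparation captures strands unequally, so the order is one of read signal and not of molecules.

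**Figure D1:**
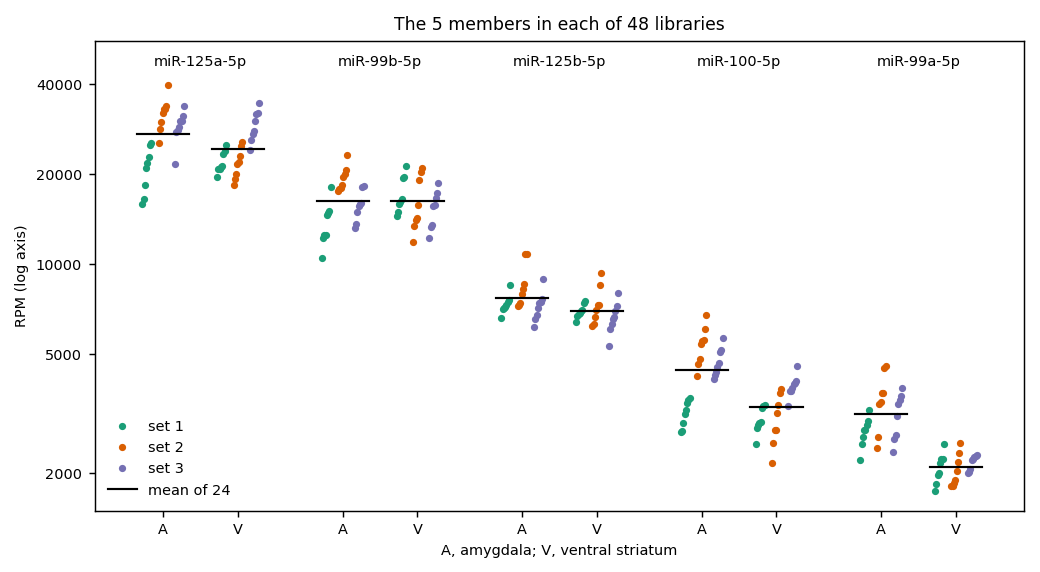
RPM of the 5 members (vertical log axis) in each of the 24 amygdala (A) and 24 ventral striatum (V) libraries, 1 point per library, coloured by set, with a line at the mean of 24 and points spread sideways for visibility. miR-99a-5p is the member with the clearest step between regions. Among the amygdala sets, set 1 has the lowest mean for every member but miR-125b-5p.

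The comparison of the regions asked whether the members had different levels in the amygdala and the ventral striatum. miR-99a-5p, miR-100-5p and miR-125b-5p were higher in the amygdala (limma, adjusted p under 0.05), whereas miR-125a-5p and miR-99b-5p did not pass the test. That is 3 of 5 members called, all of them higher, where 30.3% of the 915 names tested were called, 8.74% higher and 21.5% lower in the amygdala. These were 80 higher and 197 lower names. Rescaling each library by the median ratio of its names left 108 names higher against 119 lower (24.8% called, 11.8% higher), with the same count of 3 members, all higher. The fit treats the libraries as independent, although the regions share animals. With consecutive library numbers as a block, the adjusted p was 2e-07 for miR-99a-5p, 0.00299 for miR-100-5p and 0.0365 for miR-125b-5p (limma). The median difference of all names was −0.08, and that of the members was 0.15 (log2 scale).

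miR-99a-5p ranged from 2209 to 4566 RPM in the amygdala (median 3045) and from 1744 to 2529 RPM in the ventral striatum (median 2110). In 20 of 24 amygdala libraries it was above every ventral striatum library. The difference was 0.56 on the log2(RPM + 1) scale (SE 0.07, 95% interval 0.42 to 0.71), with an adjusted p of 3.85e-07 in limma. A two-sided permutation test of the RPM means gave 2e-05, the smallest value that 100000 resamples can give. Matched by consecutive library number, the amygdala library was the higher in 24 of 24 cases. This match, here and below, is by number only and is not a known pairing of pools. Deviations from group means in libraries so matched had a median r of 0.05, with 11 of 24 pairs over 0.1. Within sets 1, 2 and 3 the difference was 0.40, 0.77 and 0.52 (limma, adjusted p = 0.024, 0.00177 and 0.00491), and each of the 3 sets showed it in 8 of 8 matched libraries. For miR-99a-5p a test of whether the difference varied among the sets gave an adjusted p of 0.379.

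miR-100-5p, whose seed is shared by the miR-99 members, behaved less evenly. It ranged from 2757 to 6773 RPM in the amygdala (median 4437) and from 2170 to 4552 RPM in the ventral striatum (median 3357). The ranges overlapped widely, and 11 of 24 amygdala libraries lay above every ventral striatum library. The pooled difference was 0.39 (SE 0.10, 95% interval 0.18 to 0.60, limma adjusted p = 0.00436, permutation p = 6e-05). It came unequally from the sets: 0.07 in set 1, 0.83 in set 2 and 0.27 in set 3 (limma, adjusted p = 0.384, 0.00185 and 0.0117). The difference between the sets was itself past the threshold (limma F test, adjusted p = 0.000699), as it was for 6.45% of all names. Without the 8 amygdala libraries of set 2 the difference of miR-100-5p was 0.23 and no longer passed (limma, adjusted p = 0.108). In that fit miR-99a-5p, with 0.48 (adjusted p = 3.43e-06), was the 1 member called, where 24.5% of names were called and 9% were higher. Set means were 3174, 5381 and 4738 RPM in the amygdala and 3024, 3045 and 3922 RPM in the ventral striatum (n = 8 each). The gap between the regions was narrowest in set 1 and widest in set 2.

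miR-125b-5p, the product of both the Mir125b1 and the Mir125b2 gene, differed least among the called members. It ranged from 6169 to 10857 RPM in the amygdala (median 7428) and from 5319 to 9340 RPM in the ventral striatum (median 6912). The difference was 0.14 (SE 0.06, 95% interval 0.03 to 0.26), with a limma adjusted p of 0.0484 that sat at the threshold. The permutation p was 0.0109. Within the sets it was 0.08, 0.22 and 0.13, and only set 2 passed on its own (limma, adjusted p = 0.397, 0.0239 and 0.0745). Without amygdala set 2 it was 0.07 (adjusted p = 0.341), and with any 1 of 32 of the 48 libraries left out the adjusted p rose above the threshold, to at most 0.0837.

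miR-125a-5p and miR-99b-5p, which flank let-7e in one cluster, overlapped almost completely between the regions. miR-125a-5p ranged from 15873 to 39898 RPM in the amygdala (median 28337) and from 18471 to 34627 RPM in the ventral striatum (median 23728), a difference of 0.15 (95% interval −0.05 to 0.34, limma adjusted p = 0.263). miR-99b-5p ranged from 10496 to 23191 RPM (median 16011) and from 11854 to 21297 RPM (median 15866), a difference of −0.01 (95% interval −0.17 to 0.16, limma adjusted p = 0.984). The sets differed in sign. miR-99b-5p was lower in the amygdala in 8 of 8 matched libraries of set 1 (−0.33, adjusted p = 0.0146) and higher in 7 of 8 of set 2 (0.28, adjusted p = 0.106), with 0.03 in set 3. miR-125a-5p gave −0.09, 0.54 and −0.02, and only set 2 passed (limma, adjusted p = 0.00623). The difference varied among the sets for both miR-125a-5p (F test, adjusted p = 0.00321) and miR-99b-5p (adjusted p = 0.0377). Within set 1 limma called 2 of 5 members, miR-99a-5p higher and miR-99b-5p lower, where 5.92% of names were called (2.48% higher, 3.44% lower). Within set 2 it called 4 members, all higher, where 20.2% of names were called (6.17% higher), and within set 3 it called 2, both higher, where 16.9% were called (6.81% higher). With the sets as a block in the pooled fit, 4 of 5 members were called, all higher, where 35.1% of names were called (10.5% higher). The member added was miR-125a-5p, with a limma adjusted p of 0.0369. Each set lies within a single region, so this block cannot adjust the difference between regions for sets. It leaves the estimate as it was and changes only the spread left over.

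**Figure D2:**
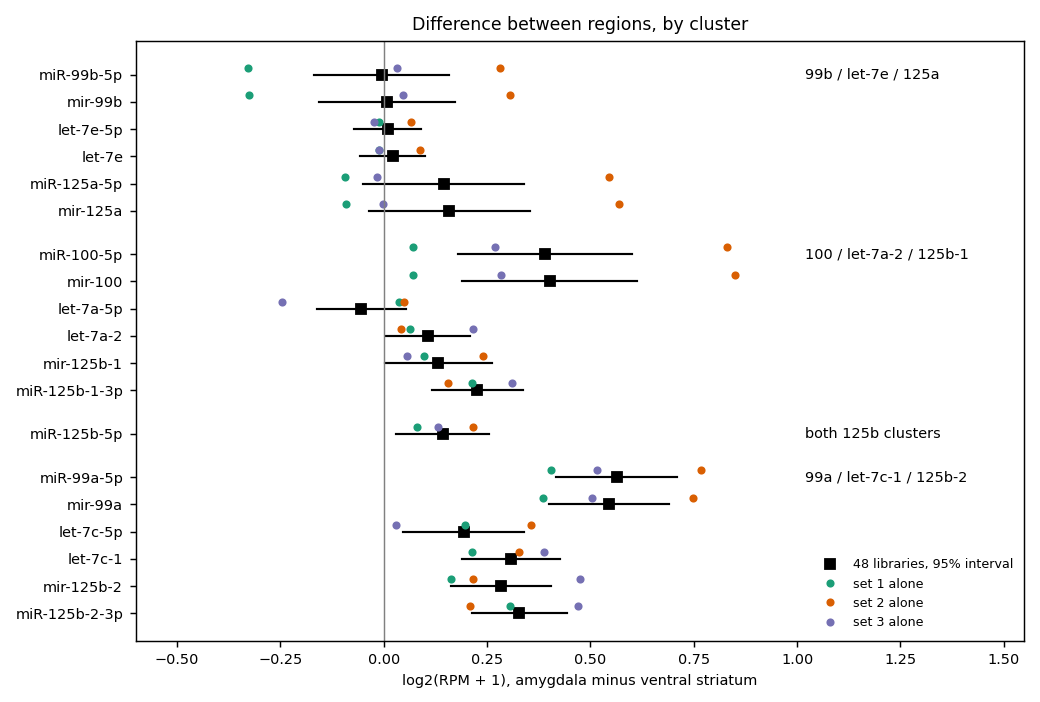
Difference between amygdala and ventral striatum on the log2(RPM + 1) scale (horizontal axis) for members, hairpins, arms and let-7 partners, grouped by cluster; squares are the fit to 48 libraries with its 95% interval, and coloured points are sets 1, 2 and 3 alone. miR-99a-5p and its hairpin lie above 0 in every set. So do other names drawn, among them miR-100-5p, miR-125b-5p and let-7c-1, at smaller values in set 1. miR-99b-5p, miR-125a-5p and miR-100-5p spread widely between sets.

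The precursor (hairpin) names are counted from largely the same reads and are not independent measurements. The hairpin mir-125b-2 differed by 0.28 (95% interval 0.16 to 0.40, limma adjusted p = 0.000374) and was higher in the amygdala in 23 of 24 matched libraries. The hairpin mir-125b-1 differed by 0.13 and did not pass (adjusted p = 0.115). In sets 1, 2 and 3 the hairpin mir-125b-2 gave 0.16, 0.21 and 0.47, and mir-125b-1 gave 0.10, 0.24 and 0.06. In set 3 the regions also differed in how the signal of miR-125b-5p was divided between its 2 lines (smaller line, median 26.3% in the amygdala against 20.7% in the ventral striatum), so these hairpin values cannot be read as values of a locus. The opposite arms, which unlike the shared 5p strand belong to 1 locus each, were both higher in the amygdala. miR-125b-2-3p rose from 2586 ± 369 to 3238 ± 373 RPM (SD, n = 24 each), a difference of 0.33 (adjusted p = 3.11e-05). miR-125b-1-3p rose from 273 ± 36 to 319 ± 34 RPM (SD, n = 24 each), a difference of 0.23 (adjusted p = 0.00161). Within the sets miR-125b-2-3p gave 0.30, 0.21 and 0.47, and its smallest value was in set 2, where miR-100-5p had its largest. Whether the loci differed from each other in their change was not tested.

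Names called higher in the amygdala came from both the miR-99a, let-7c-1 and miR-125b-2 cluster and the miR-100, let-7a-2 and miR-125b-1 cluster. In the first of these the hairpin mir-99a differed by 0.55 (adjusted p = 5.34e-07) and let-7c-1 by 0.31 (adjusted p = 0.000114). The mature let-7c-5p, which a further locus also encodes, differed by 0.19 (adjusted p = 0.0388). In sets 1, 2 and 3 let-7c-1 gave 0.21, 0.33 and 0.39, whereas let-7c-5p gave 0.20, 0.36 and 0.03. In set 3 the first line of let-7c-5p held a median of 41.2% of its signal in the amygdala, against 32.3% in the ventral striatum, so the hairpin value there moves with that division. The arms miR-99a-3p and let-7c-1-3p differed by 0.37 and 0.40 and did not pass (adjusted p = 0.0718 and 0.244). They rested on few reads, with medians of 16.5 and 1.5 per library in the amygdala and 17.5 and 2 in the ventral striatum. In the other clusters the sparse arms miR-99b-3p, let-7a-2-3p and let-7e-3p differed by −0.37, −0.38 and −0.22, and miR-125a-3p differed by 0.11. None of these was called. The names of the miR-99b, let-7e and miR-125a cluster did not pass: let-7e-5p differed by 0.01 (95% interval −0.07 to 0.09) and its hairpin by 0.02. In the miR-100, let-7a-2 and miR-125b-1 cluster, the hairpin mir-100 followed miR-100-5p with 0.40 (adjusted p = 0.00334). The hairpin let-7a-2 differed by 0.11 (adjusted p = 0.0984), and let-7a-5p, which a further locus also encodes, by −0.05 (adjusted p = 0.476). In set 3 they gave 0.22 and −0.25. There the first line of let-7a-5p held a median of 73.8% in the amygdala, against 81.0% in the ventral striatum, so this hairpin value is not read as that of a locus. For the counts that follow, 30.3% of the 915 names tested were called, 8.74% higher and 21.5% lower in the amygdala. Of the 6 hairpins of the members 3 were called, all higher in the amygdala (mir-99a, mir-100 and mir-125b-2), with a median of 0.22 over the 6. The value of mir-125b-2 is not read as that of a locus. Of the 5 opposite arms tested 2 were called, both higher, with a median of 0.23. Of the 3 let-7 partners 1 was called higher, as was 1 of their 3 hairpins, and of the 6 other let-7 family names none was called higher and let-7d-5p was lower by −0.12 (adjusted p = 0.0168). miR-351-5p, which carries the miR-125 seed but lies in none of these clusters, was also higher, by 0.24 (adjusted p = 0.000345), with 0.23, 0.31 and 0.17 in the sets.

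Cell markers moved between the regions as well. The summed choroid plexus markers (miR-204-5p, miR-448-3p and miR-1298, 3 of 4 listed) ran from 3388 to 131201 RPM in the amygdala (median 14626) and from 4315 to 7505 RPM in the ventral striatum. Of these 3 only miR-204-5p was called, higher in the amygdala by 1.13 (adjusted p = 0.0198), with a list median of 0.98. The oligodendrocyte markers miR-219a-5p and miR-338-3p, 2 of 2, were lower in the amygdala by −0.49 and −0.44 (adjusted p = 0.0266 and 0.00361). The neuronal markers miR-124-3p, miR-128-3p and miR-9a-5p summed to 26997 to 51087 RPM in the amygdala and 27500 to 53190 RPM in the ventral striatum. Of these 3 only miR-128-3p was called, higher in the amygdala by 0.41 (adjusted p = 0.0129), with a list median of 0.13. The ciliated cell markers (3 of 3) ran from 150 to 13977 RPM in the amygdala and from 148 to 5627 RPM in the ventral striatum, with a median difference of 1.42 and none called. Of 3 endothelial and smooth muscle markers miR-145-5p was lower in the amygdala by −0.26 (adjusted p = 0.0477), in sums of 24290 to 36416 RPM against 23628 to 64154 RPM. Of 7 epithelial and olfactory markers miR-429 was lower by −1.23 (adjusted p = 0.042), with a list median of −0.75 and sums of 92.6 to 1358 RPM against 104 to 2967 RPM. Of the microglia and blood cell markers and the red blood cell markers none was called (2 tested of 3 listed in each), with sums of 166 to 352 and 8.96 to 44.9 RPM in the amygdala and 157 to 273 and 12.3 to 41.2 RPM in the ventral striatum. No marker in the table was at 0 throughout a region. Their part in the differences of the members was not tested. In bulk RNA, fewer cells of a type and less of a miRNA per cell cannot be told apart.

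Ratios of a pair of members within a library leave out any factor that scales a whole library. The ratio of miR-99a-5p to miR-125b-5p, partners in one cluster, averaged 0.404 in the amygdala, against 0.302 in the ventral striatum (geometric means, n = 24 each). The difference of the log2 ratios was 0.42 (permutation test, two-sided, adjusted p = 0.0001 over 5 ratios), and it held in each set with 0.32, 0.55 and 0.39. Its unadjusted permutation p was 2e-05, the smallest value 100000 resamples can give. The ratio of miR-100-5p to miR-125b-5p was 0.561 and 0.472, a difference of 0.25 (permutation test, adjusted p = 0.0202), but it was −0.01 in set 1 and 0.61 in set 2. The ratio of miR-99a-5p to miR-100-5p, which share a seed, was 0.72 and 0.639, a difference of 0.17 (permutation test, adjusted p = 0.0389), with −0.06 in set 2 and 0.33 and 0.25 in sets 1 and 3. The ratio of miR-99b-5p to miR-125a-5p fell by 0.15 and did not pass after adjustment (permutation test, adjusted p = 0.0512), with −0.24, −0.26 and 0.05 in the sets. That of miR-125a-5p to miR-125b-5p, the 2 members with the miR-125 seed, was 3.47 in both regions, but the sets gave −0.17, 0.33 and −0.15.

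**Figure D3:**
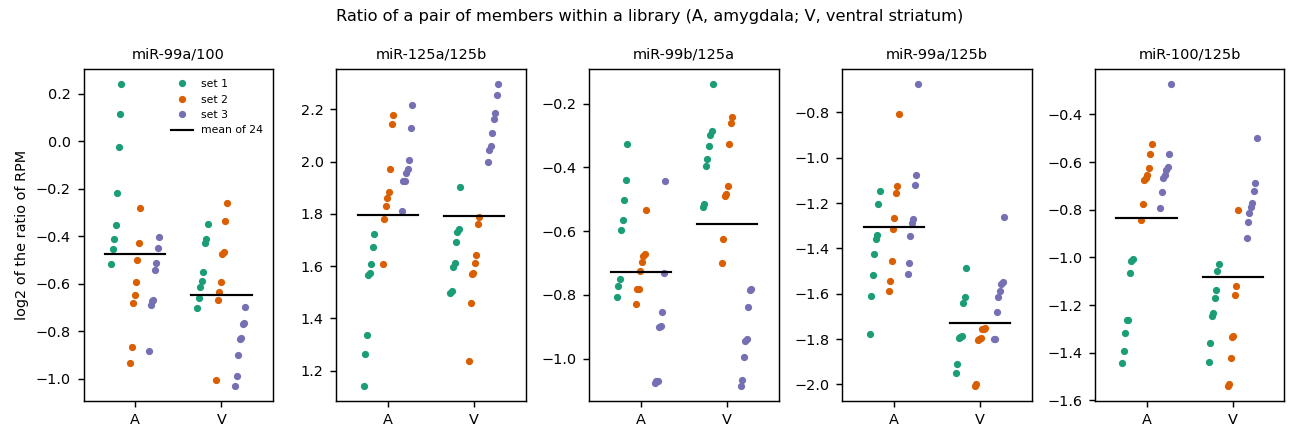
log2 of the RPM ratio of a pair of members within each library (vertical axis) for 24 amygdala (A) and 24 ventral striatum (V) libraries, coloured by set, with a line at the mean of 24. The ratio of miR-99a to miR-125b is higher in the amygdala in every set, whereas that of miR-100 to miR-125b separates set 1 of the amygdala from its other sets.

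The 5p and 3p strands were unequal, to an extent that varied by family. For each 100 RPM of miR-125a-5p there were 0.144 ± 0.044 RPM of miR-125a-3p in the amygdala, and for each 100 RPM of miR-99a-5p there were 0.687 ± 0.189 RPM of miR-99a-3p (SD, n = 24 each). miR-125b was the exception, but its 5p signal comes from 2 genes. Its values below are therefore not ratios between the strands of 1 hairpin. For each 100 RPM of miR-125b-5p there were 42.5 ± 6.6 RPM of miR-125b-2-3p and 4.19 ± 0.65 RPM of miR-125b-1-3p in the amygdala (SD, n = 24 each), and 37.3 ± 5.2 and 3.93 ± 0.51 RPM in the ventral striatum. The 2 opposite arms of miR-125b thus differed by 10.2 ± 1.3 times in the amygdala and 9.57 ± 1.48 times in the ventral striatum (SD, n = 24 each). The smaller of the 2 lines of miR-125b-5p was the same one in all 48 libraries and held 18.2% to 27.0% of its signal, a share that followed the sets (medians 25.6, 19.0 and 26.3% in the amygdala and 26.3, 19.1 and 20.7% in the ventral striatum). How reads shared by both loci were divided is not given in the sources used here, so no line was read as a locus.

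Prenatal ethanol and social enrichment changed no member past the threshold. In the 4 contrasts within each region, limma called 0 of 5 members and 0% of the 910 amygdala and 933 ventral striatum names. At an unadjusted p under 0.05, limma also found 0 members in these 8 contrasts, where 17 to 41 names passed. The estimates of the members lay between −0.20 and 0.24 on the log2 scale. Of 20 estimates for ethanol against saline 18 were below 0; the 2 others were those of miR-99a-5p in the amygdala. The estimates of a contrast share their libraries, and this count has no test.

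In the amygdala the ethanol effect in enriched rats [A S(EvC)] was largest in size for miR-99a-5p and miR-125a-5p, with opposite signs. miR-99a-5p ran from 2435 to 3713 RPM in the CS group (median 2622) and from 2690 to 4566 RPM in the ES group (median 3358), a difference of 0.24 (SE 0.18, 95% interval −0.14 to 0.62, limma adjusted p = 1). miR-125a-5p ran from 21058 to 39898 RPM in CS (median 30441) and from 16560 to 33744 RPM in ES (median 26929), a difference of −0.20 (95% interval −0.65 to 0.26, adjusted p = 1). The groups overlapped in both. The cluster partner let-7c-5p gave 0.46 in the same contrast and its hairpin let-7c-1 gave 0.46, with unadjusted p of 0.00447 and 0.00185 in limma and adjusted p of 0.678 and 0.502. In non-enriched rats [A N(EvC)] the members lay between −0.14 (miR-99b-5p) and 0.02 (miR-99a-5p). In that contrast the 3 choroid plexus markers had a median of 1.63 and none was called (limma). The enrichment effects were smaller still, from −0.10 (miR-99a-5p) to 0.09 (miR-100-5p) in control rats [A C(SvN)] and from −0.01 (miR-125a-5p) to 0.13 (miR-99a-5p) in ethanol-exposed rats [A E(SvN)].

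In the ventral striatum all 5 members were lower with ethanol by estimate in both housings, by −0.16 to −0.11 in non-enriched rats [V N(EvC)] and by −0.16 to −0.03 in enriched rats [V S(EvC)], none past the threshold. miR-125b-5p ran from 6686 to 9340 RPM in the CN group (median 7134) and from 6304 to 7043 RPM in the EN group (median 6471), so the EN group was low and narrow and overlapped the lower end of the CN group. Its difference was −0.16 (SE 0.09, 95% interval −0.35 to 0.03, limma adjusted p = 1). An exact permutation test of the RPM means of 6 against 6 libraries gave 0.0303, 1 of 40 such tests under 0.05, where the smallest p possible is 0.00216. It does not hold after adjustment for 40 tests. The difference rested partly on 1 library, female CN replicate 1 with 9340 RPM; without it the difference was −0.08. Enrichment moved the members by −0.07 (miR-125a-5p) to 0.15 (miR-100-5p) in control rats [V C(SvN)] and by −0.03 (miR-99a-5p) to 0.13 (miR-100-5p) in ethanol-exposed rats [V E(SvN)], again none past the threshold.

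**Figure D4:**
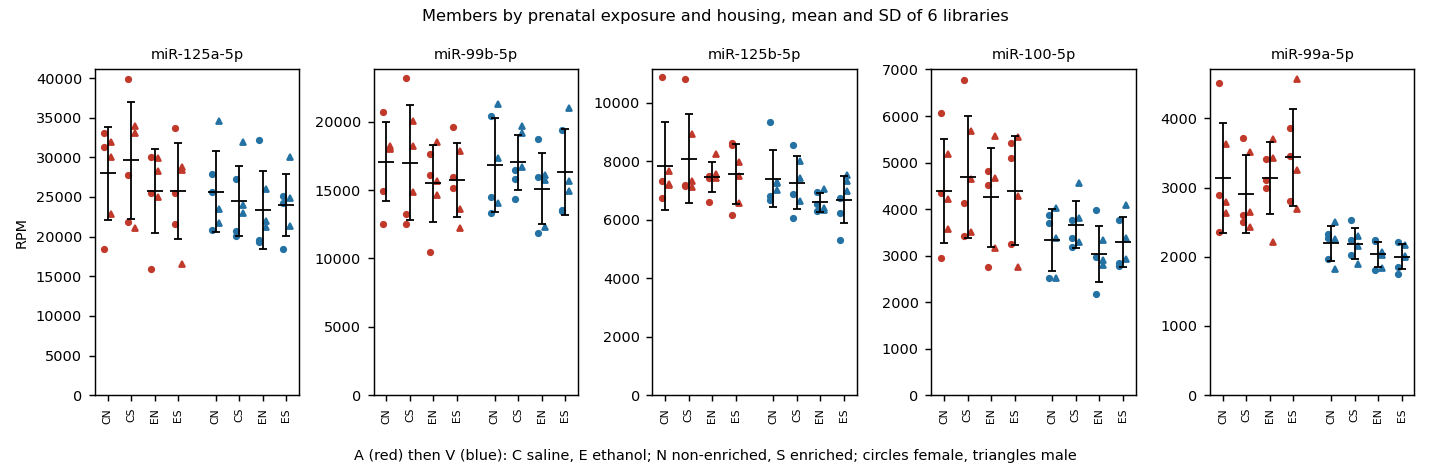
RPM of each member (vertical axis, from 0) by treatment group in the amygdala (red) and ventral striatum (blue), 6 libraries a group, circles for females and triangles for males, with the mean and SD. Groups of one region overlap for every member, and the step of miR-99a-5p between regions is wider than any step between treatments.

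The difference between the enrichment effects of ethanol-exposed and control rats was also called for 0 of 5 members in either region (limma, 0% of names). It lay between −0.08 (miR-125a-5p) and 0.23 (miR-99a-5p) in the amygdala, with 95% intervals reaching from −0.78 to 0.77, and between −0.03 (miR-99a-5p) and 0.11 (miR-125a-5p) in the ventral striatum. No treatment effect of a member differed between the regions past the threshold (0 of 5 in each of 4 contrasts, 0% of 915 names). The widest such difference was that of miR-99a-5p for ethanol in enriched rats, 0.37 (95% interval −0.04 to 0.79, limma adjusted p = 1). Females and males did not differ past the threshold either, with estimates from −0.10 (miR-99b-5p) to 0.03 (miR-99a-5p) and 0 of 5 members called (0% of names). With the sets as a block the estimates were the same, since sets and groups were balanced, and still 0 members were called. The intervals leave room for changes of the size seen between the regions in some members: that of miR-100-5p for ethanol in non-enriched rats reached from −0.56 to 0.46 in the amygdala and from −0.47 to 0.19 in the ventral striatum.

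Deviations from the 16 group means showed which names varied with the members from library to library. These correlations across 48 libraries are descriptions, since the libraries share depth and set, and they were computed over 299 mature names. miR-125a-5p was most like miR-361-5p (r = 0.89), miR-30d-5p (0.85) and miR-151-5p (0.84). After removal of set means these fell to 0.67, 0.54 and 0.60. miR-100-5p was most like miR-125a-5p (0.84), miR-24-3p (0.80) and miR-361-5p (0.75), which fell to 0.39, 0.38 and 0.20. For these members much of the likeness was thus shared between sets. miR-99a-5p was most like miR-100-5p (0.69), let-7c-5p (0.68) and let-7b-5p (0.61), and kept 0.69, 0.66 and 0.60 after removal of set means. miR-99b-5p was most like miR-409a-5p (0.69), miR-24-3p (0.65) and miR-100-5p (0.65), with 0.84, 0.59 and 0.76 after that step. miR-125b-5p was most like miR-409a-5p (0.62), miR-99b-5p (0.57) and miR-99a-5p (0.53), with 0.61, 0.47 and 0.53. miR-99a-5p and its neighbour let-7c-5p varied together more closely in the amygdala (r = 0.90, 24 libraries) than in the ventral striatum (0.37, 24 libraries), a contrast that was not tested. Other members varied less closely with their let-7 neighbour. In the amygdala and the ventral striatum r was 0.39 and −0.40 for miR-99b-5p with let-7e-5p. It was 0.70 and 0.03 for miR-125a-5p with let-7e-5p, and 0.49 and 0.33 for miR-100-5p with let-7a-5p.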

How the data were processed

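Per the methods, reads were quality-trimmed, mapped with Bowtie (genome build Rn5) and quantified in Partek Flow with miRBase annotation. The authors deposited a normalized signal per name and library, described as RPM. Mature and precursor values each add up to 1000000 per library. Lines sharing a name were added (122 lines, 56 names). Reads per library were estimated from the step between low values (91.97% to 99.59% whole within 0.02). Values were tested as log2(RPM + 1) with limma 3.58.1 in R 4.3.3 (lmFit, contrasts.fit, eBayes with trend), on names above 0 in at least 6 of 24 libraries of a region (8 groups) or 12 of 48 libraries (16 groups), two-sided, with Benjamini-Hochberg adjustment over all names. Permutation tests used scipy 1.17.1. Ratios were adjusted over 5 tests.

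Sets were found, after the data were seen, by Ward clustering of line shares in each region separately, cut at a fixed number of 3 sets. The shares were those of 8 abundant names of at least 3000 RPM in every library, members excluded. A minimum of 5000 RPM gave the same sets, one of 2000 RPM moved 1 amygdala library and one of 1000 RPM moved 13. Whether replicates came from separate litters is not given in the sources used here, so p-values measure the spread between these pools. All members were named in every comparison, lists served for hairpins, arms, let-7 names, one seed and cell markers, and the 3 most correlated names were given per member. Members and lists were chosen with earlier results of these data known. The limma fit was tested on simulated data, for the comparison of regions and for A N(EvC). Libraries were simulated as independent, without sets or shared animals, so the effect of these on the fit was not tested.

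Other settings tried were rescaling by median ratios, added constants of 0.1 and 10 RPM, a stricter filter (10 RPM on average) or none, tests on mature names alone, unmoderated tests on log2 or RPM values, blocks for replicate or library number, a depth term, fits to the 12 libraries compared and leaving out single libraries. Fits by set, with sets as a block and without amygdala set 2 were added after the data were seen.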

Additional observations from a re-analysis of the deposited data

Results flagged for a closer look

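Among 40 groups of 6 libraries (5 members, 2 regions, 4 treatment groups), 3 held a library far from its neighbours relative to the range of the group; chance gives about 1 in 20. In the amygdala EN group, miR-125a-5p in female replicate 1 (15873 RPM, nearest 25019 RPM) left a gap of 0.645 of the range. In the CN groups, miR-125b-5p was highest in female replicate 1 of both regions: 10857 RPM in the amygdala (nearest 7654 RPM, gap 0.779 of the range) and 9340 RPM in the ventral striatum (nearest 7296 RPM, gap 0.77). These 2 libraries have consecutive numbers and belong to set 2.

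The difference between amygdala and ventral striatum varied among the 3 sets for miR-100-5p (limma F test, adjusted p = 0.000699), miR-125a-5p (adjusted p = 0.00321) and miR-99b-5p (adjusted p = 0.0377). The sets were defined after the data were seen, from names other than the members.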

How the results depend on the processing

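The difference of miR-99a-5p between regions passed under 11 of 11 alternatives planned from the start (0.50 to 0.63, adjusted p 8.78e-08 to 3.13e-05) and with each of 48 libraries left out (0.53 to 0.59). That of miR-100-5p passed under 10 of 11 (0.25 to 0.46) and failed with the depth term (0.25, adjusted p = 0.106). That of miR-125b-5p passed under 5 of 11 (0.07 to 0.21, adjusted p 0.00609 to 0.461). miR-125a-5p (at most 0.21) and miR-99b-5p (−0.13 to 0.06) passed under none of the 11. In place of 3 members called, the depth term gave 1, and leaving out single libraries gave 2 to 3. Leaving out amygdala set 2, chosen after the values were seen, gave 1, where 24.5% of names were called and 9% were higher. The share of all names called is not given here for the depth term, single libraries left out or the replicate block. Those counts are therefore not read as particular to the members. Of the within-library ratios 3 of 5 passed, with hairpin values 1, and with single libraries left out 2 to 4. The cause of these changes was not tested. In the treatment, sex and region-by-treatment comparisons, none of 683 alternative fits called a member. Estimates that were never called crossed 0 in 285 of 3515 cases and are not counted as reversals. The libraries were not paired by replicate number, since deviations at one number and sex correlated over 0.1 in 14 of 36 pairs in the amygdala and 15 of 36 in the ventral striatum. With the replicate block 3 members were called between regions and 0 in the other comparisons, as without it. The limits of the data are pooled RNA, sets of libraries that the labels do not name, and 6 libraries a group.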
